A study of Arabidopsis thaliana with 16 samples.

Results

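Dehydrins are plant proteins of the late embryogenesis abundant class, and the genes described here are the 7 of Arabidopsis thaliana that carry the names COR47 (AT1G20440), ERD10 (AT1G20450), ERD14 (AT1G76180), LTI30 (AT3G50970), RAB18 (AT5G66400), XERO1 (AT3G50980) and HIRD11 (AT1G54410). They were chosen by their locus identifiers, with earlier results of these data known, and are 7 of the 34262 features in the count files. The series deals with N6-methyladenosine (m6A), an internal mark of mRNA, in seedlings exposed to cold. Whole seedlings of ecotype Col-0, 20 days old and grown at 22 °C with 12 h of light per day, spent 24 h at 4 °C (cold) or were left untreated (control). All groups share the Col-0 background, and the labels name no mutant and no chemical. Cold and control seedlings each gave 3 m6A peak lists, 3 total mRNA libraries and 2 polysomal RNA libraries, which hold transcripts bound by ribosomes. Each sample mixes all organs of the seedling, so fewer cells of a type and less RNA per cell cannot be told apart. The sources used here give neither the light during the cold nor the hour of collection. The labels do not say that replicates were grown apart, so a p-value rests on a spread that may be technical.

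Dehydrins are highly hydrophilic proteins with little fixed structure in solution. They share a lysine-rich stretch, the K-segment, which can fold into a helix on membranes, and many also carry a run of serines that casein kinase 2 can phosphorylate. Plants make them during seed drying, cold, drought and salt stress, and they are known for shielding membranes and enzymes against loss of water. Dehydrin genes are among the known targets of CBF proteins, transcription factors of the cold response that bind the core CCGAC, and of the ABF factors, which act in abscisic acid signalling and bind the core ACGTG.

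In the cold, COR47, ERD10 and LTI30 were higher in total mRNA and in polysomal RNA, with log2 changes between 2.72 and 5.21. HIRD11 was higher in total mRNA by 1.36 on the log2 scale and had 0.46 in polysomal RNA, which was not called. ERD14 and RAB18 were called in neither fraction. XERO1 had at most 18 reads in a library and passed no filter. Of the 7 genes, 6 were therefore tested in each comparison.

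The loci lie in 5 places of the genome, given here in the coordinates of the RefSeq annotation of TAIR10.1. COR47 (chr1:7084409-7086873) and ERD10 (chr1:7087903-7089606) are neighbours on the minus strand with 1029 bases between them, and LTI30 (chr3:18940643-18941611) and XERO1 (chr3:18941925-18942940) are neighbours on the plus strand with 313 bases between them. ERD14 (chr1:28586663-28587931), HIRD11 (chr1:20309473-20310850) and RAB18 (chr5:26518277-26519447) stand alone and lie on the minus strand. LTI30 has 1 exon and the other members have 2 each. No window of 50 bases of any member's transcript was found elsewhere in the nuclear genome, so reads of the neighbours can be told apart. RAB18 alone overlaps another annotated gene, AT5G66410, and without the strand setting of the counting, reads of their overlap cannot be told apart.

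The upstream sequences differed in the motif cores they hold. The cores were searched on both strands, matches that overlap were counted once, and capitals mark them. In the 250 bases before the annotated transcript start, LTI30 held CCGAC 3 times, 101, 78 and 9 bases before the start, and no ACGTG. RAB18 held ACGTG 3 times, 163, 111 and 18 bases before the start, and no CCGAC. Among 27443 promoters of coding genes of this length, 12.0% held CCGAC and 22.9% held ACGTG. The contrast depends on the window edge. An ACGTG of LTI30 begins at its annotated start, just past this window, 182 bases before its start codon. RAB18 held a CCGAC inside its annotated transcript, 206 bases before its start codon. The LTI30 and RAB18 promoters are printed because they hold 3 matches each, of different cores. They belong to the members with the highest cold change in mRNA and with no called change. LTI30 (chr3:18940393-18940642, plus strand) and RAB18 (chr5:26519448-26519697, minus strand) read 5′ to 3′, from the RefSeq TAIR10.1 genome:
LTI30 promoter: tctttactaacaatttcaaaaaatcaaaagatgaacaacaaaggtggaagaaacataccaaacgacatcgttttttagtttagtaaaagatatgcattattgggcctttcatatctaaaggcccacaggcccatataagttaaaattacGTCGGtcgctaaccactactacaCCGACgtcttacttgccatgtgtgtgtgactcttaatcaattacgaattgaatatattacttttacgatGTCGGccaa
RAB18 promoter: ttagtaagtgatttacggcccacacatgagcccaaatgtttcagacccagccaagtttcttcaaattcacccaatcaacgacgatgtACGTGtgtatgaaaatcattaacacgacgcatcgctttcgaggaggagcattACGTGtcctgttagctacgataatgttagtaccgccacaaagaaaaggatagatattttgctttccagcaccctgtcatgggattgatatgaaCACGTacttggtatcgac

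ERD14, XERO1 and HIRD11 each held ACGTG at 1 place in the same window, 85, 62 and 241 bases before the start, and COR47 and ERD10 held neither core. The annotated starts of COR47 and ERD10 lie far from their start codons, 1209 and 499 bases upstream, against 109 to 294 bases in the other members. With the window set to the 500 genomic bases before the start codon, a choice made after the data were seen, CCGAC was present in COR47, ERD10, LTI30 and RAB18 and in none of ERD14, HIRD11 and XERO1. It was present in 23.3% of all coding genes in that window. ACGTG was present there in every member except ERD10, and in 34.8% of all coding genes. COR47 had 1 match, 268 bases before its start codon, and ERD10 had 2, at 278 and 270 bases. The short stretches around the CCGAC of the neighbours, chr1:7085918-7085942 for COR47 and chr1:7089371-7089395 for ERD10 (minus strand, RefSeq TAIR10.1), are printed because both lie inside the annotated transcripts of neighbours that were higher in the cold. Capitals mark 1 match in each, and the further cores that follow it in ERD10 are left in lower case:
COR47 site: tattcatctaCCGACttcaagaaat
ERD10 site: tattcatccaCCGACcgaccgacgt
A match is a string of letters and says nothing about binding. The members with CCGAC in the window before the start codon include the 3 that were higher in both fractions and also RAB18, which was not called. HIRD11, which was higher in mRNA, has none in that window. The split depends on the window. In the 1000 bases before the annotated transcript start, CCGAC was present in every member except XERO1, beside 37.4% of all promoters of coding genes.

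The count libraries held 3282574 to 10965304 gene counts for mRNA and 12984431 to 22200225 for polysomes. Among the mRNA libraries cold replicate 3 differed from the rest. It was the smallest. Reads not aligned to a single place made up 82.2% of its tallied reads, while the rest of the mRNA set had 61.9% to 66.3%. Organelles gave 22.1% of its gene counts, and 6.28% to 8.70% in the rest of that set. The polysome libraries were far lower in both. Their reads not aligned to a single place were 4.65% to 5.50%, and their organelle counts were 0.153% to 0.437%. The effect of this gap between library types on polysome and mRNA comparisons was not tested. The 4 shoot markers summed to 21149 to 30034 CPM in cold and 19742 to 24095 CPM in control mRNA, and to 35364 to 39764 CPM in cold and 36998 to 37280 CPM in control polysomes. Within this list LHCB1.1 was higher in cold mRNA (log2 change 0.66, adjusted p = 0.0348, edgeR), and CA1 and RCA were lower (−0.95 and −0.72, adjusted p = 0.0133 and 0.0202). The 4 root markers summed to 65.7 to 203 CPM in cold and 52.6 to 84.5 CPM in control mRNA, and to 15.3 to 20.4 CPM in cold and 21.9 to 23.8 CPM in control polysomes. Of these TIP2;3 was lower in cold mRNA (−2.26, adjusted p = 0.0401, edgeR). NRT2.1, PRP3 and PHT1;1 had log2 changes of 1.51, 1.28 and 0.01 there and were not called. The sum of 203 CPM was that of cold replicate 3, where PRP3 had 132 CPM, against 33.6 and 34.3 CPM in cold replicates 1 and 2. The 8 seed storage and oil body markers summed to 0.380 to 1.51 CPM in cold and 0 to 0.157 CPM in control mRNA, with 5 of 8 at 0 in cold and 7 of 8 at 0 in control. In polysomes they summed to 0.955 to 1.82 CPM in cold and 0.195 to 10.9 CPM in control, with 3 of 8 at 0 in each. The 4 flower markers summed to 2.59 to 6.96 CPM over the 10 libraries. The part of these in the changes below was not tested.

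Levels are given as CPM, the usual count scaled to library size, for which TMM factors set the size of each of the 10 libraries. Dehydrin reads made up 0.723%, 1.02% and 0.504% of all gene counts in cold mRNA, against 0.159%, 0.170% and 0.145% in control mRNA. In polysomes they made up 0.780% and 1.70% in cold, against 0.423% and 0.335% in control. The cold shares lay above the control shares in both fractions with no overlap. Of the cold polysome libraries, replicate 2 was the higher for every member except XERO1.

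**Figure D1:**
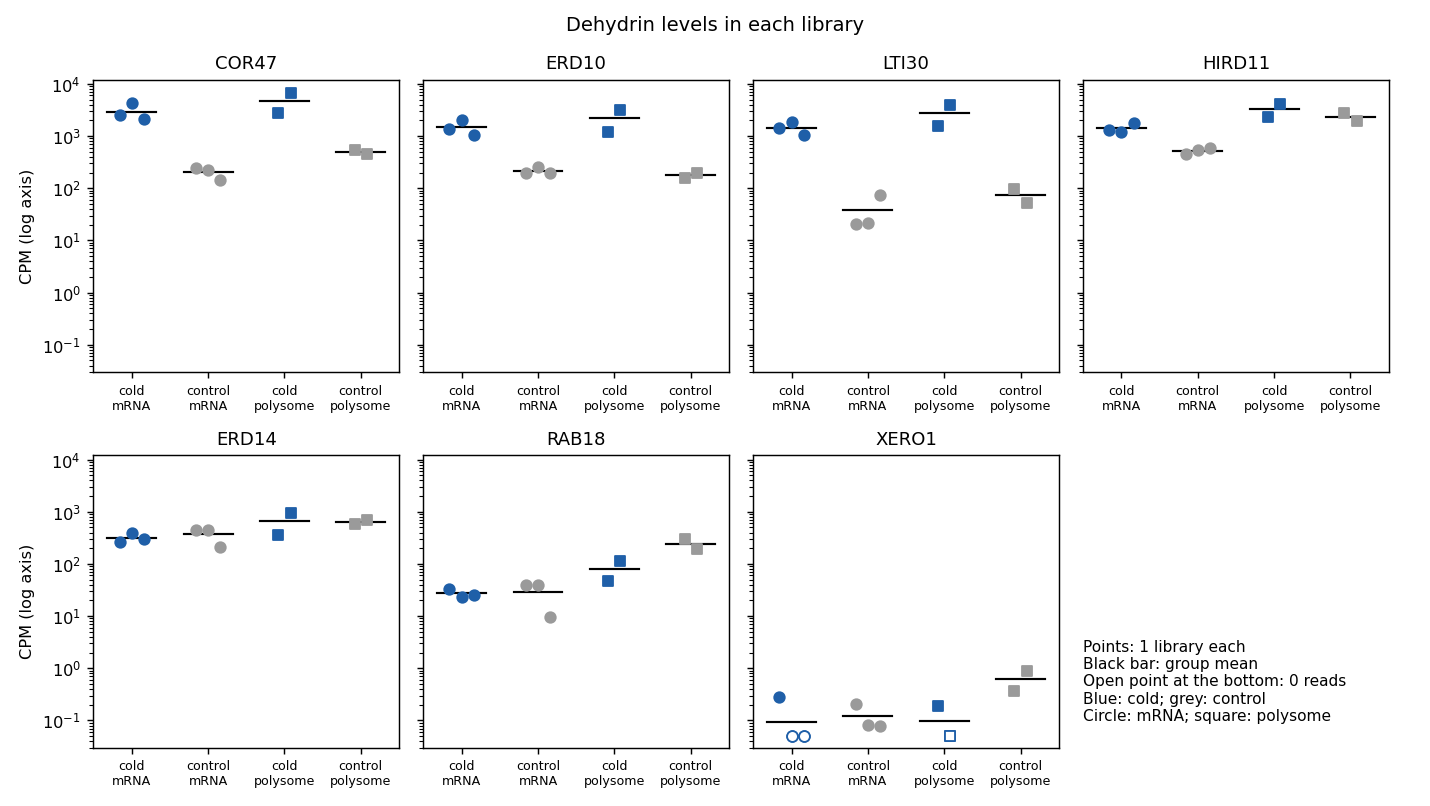
CPM of each dehydrin on a log axis in the 10 count libraries, with cold in blue and control in grey, mRNA as circles and polysomes as squares, and a bar at each group mean. COR47, ERD10 and LTI30 sit above their controls in both fractions without overlap, while XERO1 stays below 1 CPM.

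COR47, ERD10 and ERD14 are acidic dehydrins with a serine run. COR47 had 2548, 4226 and 2077 CPM in cold mRNA, against 239, 226 and 145 CPM in control mRNA. It had 2824 and 6753 CPM in cold polysomes, against 541 and 448 CPM in control polysomes. The lowest cold library was over the highest control library in each fraction. The log2 change was 3.79 (SE 0.343, adjusted p = 4.73e-04, edgeR quasi-likelihood test, Benjamini-Hochberg) in mRNA, a 13.9-fold difference, and 3.27 (SE 0.510, adjusted p = 0.0270) in polysomes.

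ERD10, first described as a gene induced early by drying and known to hold chaperone activity in the test tube, had 1374, 2070 and 1067 CPM in cold mRNA, against 199, 253 and 200.1 CPM in control mRNA. In polysomes it had 1176 and 3181 CPM in cold, against 157 and 196 CPM in control. Again no cold library reached down to a control library. The log2 change was 2.72 (SE 0.271, adjusted p = 5.23e-04, edgeR) in mRNA and 3.62 (SE 0.547, adjusted p = 0.0254) in polysomes. Without control polysome replicate 1 the log2 changes in polysomes were 3.42 for COR47 (adjusted p = 0.0722, edgeR) and 3.48 for ERD10 (adjusted p = 0.0708), and without control polysome replicate 2 that of COR47 was 3.14 (adjusted p = 0.0552). The calls were lost there while the changes stayed near those of all libraries.

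ERD14, an acidic member also known for chaperone activity in the test tube, had 269, 394 and 295 CPM in cold mRNA, against 443, 449 and 209 CPM in control mRNA. In polysomes it had 365 and 959 CPM in cold, against 589 and 695 CPM in control. The groups overlapped in both fractions. The log2 change was −0.27 (SE 0.303, adjusted p = 0.547, edgeR) in mRNA. It was 0.04 (SE 0.472, adjusted p = 0.969) in polysomes, and turned to −0.0377 when raw library totals replaced the TMM factors.

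LTI30, a basic dehydrin known to bind membranes and also called XERO2, had the largest change of the family. It had 1445, 1834 and 1040 CPM in cold mRNA, against 20.8, 21.7 and 74.7 CPM in control mRNA. In polysomes it had 1580 and 3978 CPM in cold, against 98.1 and 51.5 CPM in control. The groups were far apart in both fractions, and control mRNA replicate 3 stood above the other control mRNA libraries. The log2 change was 5.13 (SE 0.649, adjusted p = 0.00352, edgeR) in mRNA, a 35.1-fold difference, and 5.21 (SE 0.639, adjusted p = 0.0212) in polysomes. Without control mRNA replicate 3 the mRNA change was 6.02 on the log2 scale, which is over 1.5 times the fold of the full set.

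HIRD11, a small histidine-rich dehydrin known to bind metal ions, had 1281, 1186 and 1794 CPM in cold mRNA, against 445, 532 and 596 CPM in control mRNA. In polysomes it had 2297 and 4199 CPM in cold, against 2761 and 1929 CPM in control. The mRNA groups did not overlap, and the polysome groups did. The log2 change was 1.36 (SE 0.196, adjusted p = 0.00232, edgeR) in mRNA and 0.46 (SE 0.416, adjusted p = 0.503) in polysomes.

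RAB18, a dehydrin known for its strong induction by abscisic acid, had 32.7, 22.8 and 25.9 CPM in cold mRNA, against 39.1, 39.5 and 9.43 CPM in control mRNA. In polysomes it had 47.4 and 113 CPM in cold, against 295 and 192 CPM in control. The mRNA groups overlapped through control replicate 3, while both cold polysome libraries lay below both control polysome libraries. The log2 change was −0.18 (SE 0.517, adjusted p = 0.831, edgeR) in mRNA and −1.61 (SE 0.460, adjusted p = 0.0818) in polysomes. Of 7 other settings for polysomes, 5 also gave no call, with an adjusted p of up to 0.105 (edgeR, all 10 libraries in 1 fit). The other 2 put the difference past the threshold, among them DESeq2 with an adjusted p of 0.00380. With 1 polysome library left out the log2 change was −2.35 to −1.10, and −2.35 was without cold polysome replicate 2.

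XERO1, the downstream neighbour of LTI30, was read 3, 0 and 0 times in cold mRNA, against 2, 1 and 1 times in control mRNA. In polysomes it was read 4 and 0 times in cold, against 7 and 18 times in control. Relative to the library sizes, the summed reads of cold over control polysomes gave a ratio of 0.198 with an exact 95% interval of 0.05001 to 0.573, and in mRNA a ratio of 1.08 with an interval of 0.158 to 6.38. These intervals cover counting error only, and the polysome reads of control replicate 2 alone were 18. A total of 3 reads, the limit that a count of 0 allows, corresponds to 0.1245 CPM over the cold mRNA libraries and 0.08653 CPM over the control mRNA libraries.

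In mRNA, 4 of the 6 tested members were higher in the cold and 0 were lower, where 13.4% of the 19261 genes tested were higher and 12.3% were lower. When raw library totals replaced the TMM factors, all genes gave 1361 higher and 2872 lower calls with a median log2 change of −0.17, where TMM gave 2586 higher and 2363 lower. No member was lower in mRNA at an unadjusted p under 0.05 or with DESeq2. The median log2 change was 2.04 over the 6 tested members and −0.01 over all genes tested. The 4 calls held without each library in turn. Without cold mRNA replicate 3 the log2 changes were 4.01 for COR47, 2.93 for ERD10, 5.33 for LTI30 and 1.18 for HIRD11.

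In polysomes, 3 of the 6 tested members were higher and 0 were lower with edgeR, where 3.87% of the 19239 genes tested were higher and 3.95% were lower. At an unadjusted p under 0.05, 1 member was lower, and with DESeq2 1 member was lower. It was RAB18 in both cases. The median log2 change was 1.86 over the 6 tested members and −0.02 over all genes tested. Without cold polysome replicate 2 the log2 changes of the called members were 2.52 for COR47, 2.75 for ERD10 and 4.41 for LTI30.

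The difference between the polysome change and the mRNA change, called translational efficiency here, was fitted over the 10 libraries. With edgeR 0 of the 6 tested members were higher and 0 were lower, where 0.065% of the 20001 genes tested were higher and 0.22% were lower. DESeq2 also called 0 in either direction, and at an unadjusted p under 0.05 there was 1 member, HIRD11. Its difference was −0.97 on the log2 scale (SE 0.436, adjusted p = 0.400, edgeR). RAB18 had the largest difference in size, −1.50 (SE 0.807, adjusted p = 0.489). COR47 had −0.58 (SE 0.571) and its neighbour ERD10 had 0.84 (SE 0.555). ERD14 had 0.24 (SE 0.590), and LTI30 had 0.01 (SE 0.872), both smaller than their errors. The errors leave room for differences of over 1 unit on the log2 scale in each of the 6 genes at about 2 standard errors, so a p that misses the threshold does not show that the fractions moved alike.

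**Figure D2:**
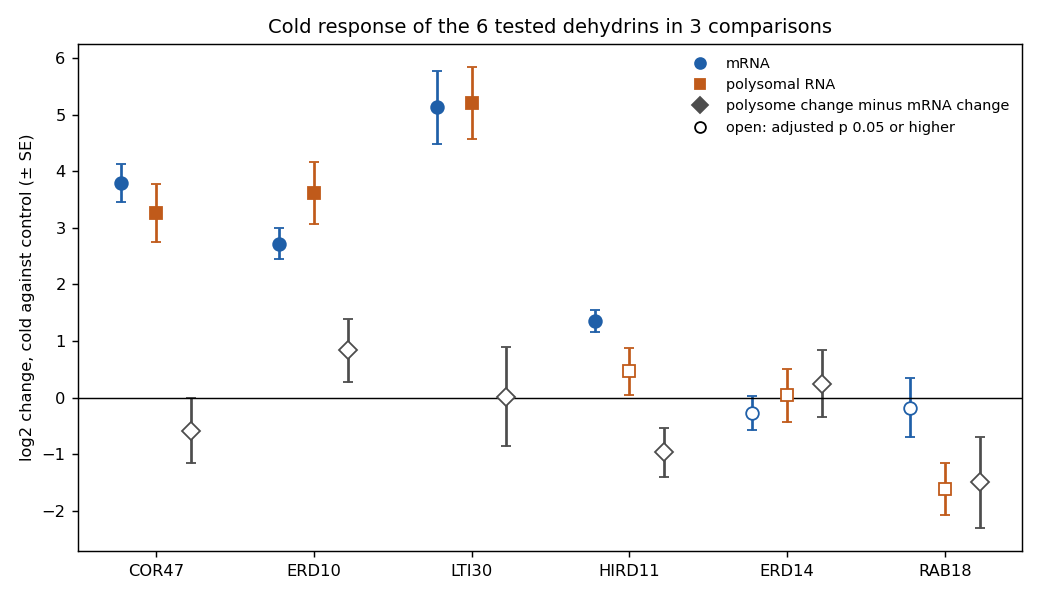
Log2 change of the 6 tested dehydrins, cold against control, in mRNA (circles), in polysomal RNA (squares) and as the difference of the 2 changes (diamonds), with SE bars; open symbols have an adjusted p of 0.05 or higher. The COR47, ERD10 and LTI30 symbols for mRNA and polysomes lie between 2.72 and 5.21, and every diamond is open.

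Within a condition, polysomal and total mRNA levels were compared as a description only, since the fraction and the library type cannot be told apart. On the log2(CPM + 0.5) scale, polysome minus mRNA was 1.43 in cold and 3.25 in control for RAB18, and 1.15 in cold and 2.15 in control for HIRD11. For COR47 it was 0.63 in cold and 1.31 in control, for ERD14 0.91 in cold and 0.88 in control, and for LTI30 0.84 in cold and 1.12 in control. ERD10 was the member whose sign differed, with 0.42 in cold and −0.30 in control. The median gene, whose level the TMM factors hold alike across libraries, had 0.03 in cold and 0.03 in control. The polysome and mRNA libraries did not overlap in either condition for RAB18 and HIRD11, and overlapped in the cold for COR47, ERD10, ERD14 and LTI30.

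Levels of different genes were compared per kilobase of exon. The summed dehydrin level was 4845, 6408 and 4511 CPM per kb in cold mRNA, against 1058, 1170 and 983 CPM per kb in control mRNA. In polysomes it was 5989 and 13662 CPM per kb in cold, against 3682 and 2865 CPM per kb in control. LTI30 made up 28.04% of this sum in cold mRNA and 3.93% in control mRNA (means of 3 libraries). The control libraries held 2.02%, 1.91% and 7.84%, and without replicate 3 their mean was 1.97%. The cold libraries held 30.8%, 29.5% and 23.8% LTI30, and 23.8%, 16.6% and 35.7% HIRD11, which lay above LTI30 in replicate 3. COR47 made up 23.6% in cold and 8.14% in control, and ERD10 made up 17.3% in cold and 12.5% in control. HIRD11 had 25.4% in cold and 44.4% in control, and ERD14 had 5.14% in cold and 28.6% in control. RAB18 had 0.491% in cold and 2.46% in control. HIRD11 and ERD14 thus formed most of the pool of control seedlings, and LTI30, HIRD11 and COR47 most of that of cold seedlings.

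In polysomes LTI30 made up 28.6% of the sum in cold and 2.302% in control, and HIRD11 31.0% in cold and 63.9% in control. COR47 had 20.8% in cold and 6.54% in control, ERD10 13.2% in cold and 3.42% in control, ERD14 5.54% in cold and 17.0% in control, and RAB18 0.741% in cold and 6.74% in control. Per coding length, a choice made after the data were seen, HIRD11 led in all 4 groups. It had 36.4% in cold and 57.5% in control mRNA, and 43.8% in cold and 75.1% in control polysomes. COR47 then had 26.8% and LTI30 18.2% in cold mRNA, the reverse of their order per kb of exon. Among 27444 coding genes ranked by mean CPM per kb of exon in mRNA, LTI30 was at rank 15 in cold and 2201 in control, HIRD11 at rank 23 in cold and 100 in control, COR47 at rank 24 in cold and 889 in control, and ERD10 at rank 42 in cold and 560 in control. ERD14 was at rank 322 in cold and 180 in control, and RAB18 at rank 4112 in cold and 3378 in control.

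**Figure D3:**
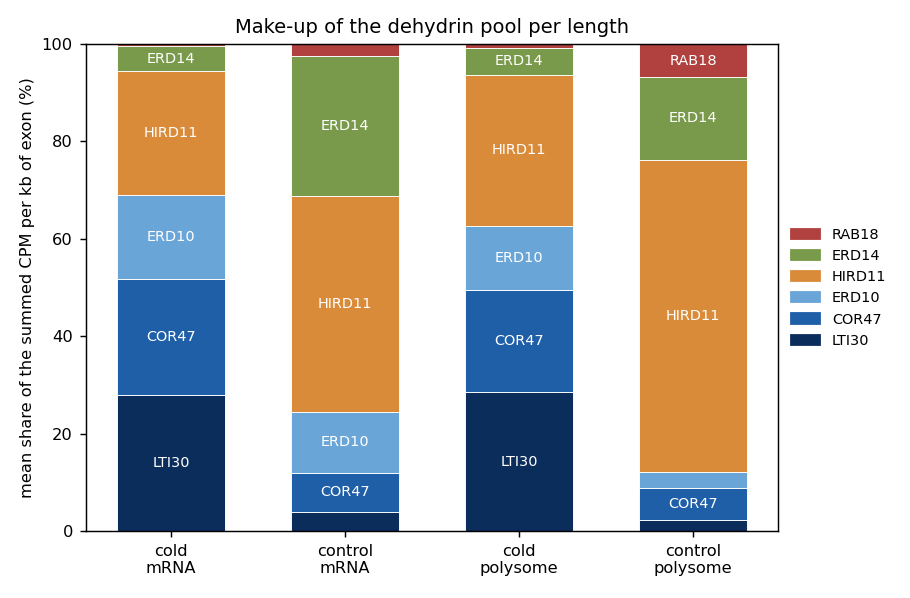
Mean share (%) of each dehydrin in the summed CPM per kb of exon, by group, with each cold bar left of its control. LTI30 takes 28.04% in cold mRNA and 3.93% in control mRNA (1.97% without replicate 3), and HIRD11 takes 63.9% in control polysomes.

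The neighbours COR47 and ERD10 can be set against each other within a library, where scaling plays no part. COR47 reads over ERD10 reads were 1.85, 2.04 and 1.95 in cold mRNA, against 1.197, 0.893 and 0.726 in control mRNA. All 3 cold ratios lay above all 3 control ratios. The difference was 1.08 on the log2 scale (exact two-sided permutation p = 0.1, the smallest that 3 libraries against 3 allow). In polysomes the ratios were 2.40 and 2.12 in cold, against 3.45 and 2.29 in control, a difference of −0.32 (exact permutation p = 0.667, where 0.333 is the smallest possible). Without control polysome replicate 1 that difference was −0.02. The neighbours LTI30 and XERO1 could hardly be compared, since XERO1 had 0 reads in 3 cold libraries. With 0.5 reads added to each count, their log2 ratio differed by 5.56 in mRNA (exact permutation p = 0.1) and 7.75 in polysomes (exact permutation p = 0.333), values that move with the added reads.

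**Figure D4:**
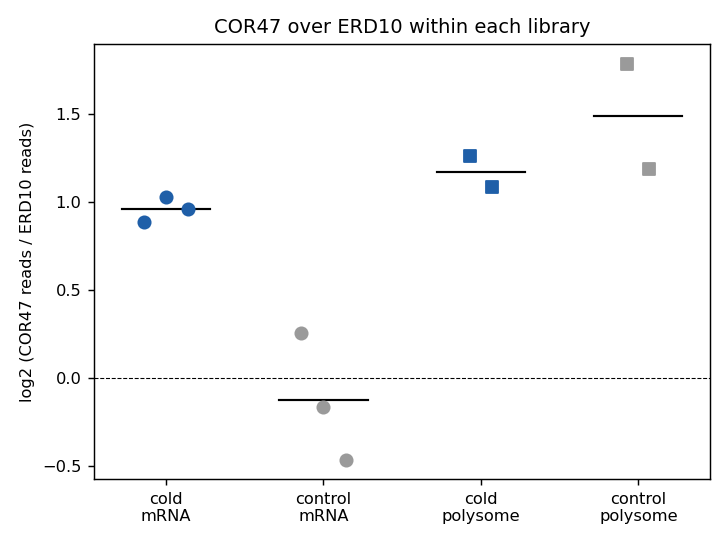
Log2 of COR47 reads over ERD10 reads in each of the 10 libraries, with a bar at each group mean and a dashed line at equal reads. The cold mRNA libraries lie above the control mRNA libraries by 1.08 on average, and the polysome groups overlap.

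The genes most alike in pattern to each member were found by the Pearson r of log2(CPM + 0.5) over the 10 libraries. Candidates were genes whose log2 CPM averaged 4 or more. The 10 libraries fall into 4 groups, so r mostly follows the group means and is given as a description. For COR47 they were TUB9 (0.994) and TUA5 (0.981), which code for tubulins, proteins with near-identical gene copies. For ERD10 they were SUS1 (0.987), a sucrose synthase, and AT1G22730 (0.982). For LTI30 they were KIN1 (0.987), a cold-induced gene, and AT5G59830 (0.985). For HIRD11 they were COR314-TM2 (0.991) and ATHM2 (0.983), a thioredoxin. For RAB18 they were CYP71B5 (0.986), a cytochrome P450, and AT4G28706 (0.981), for ERD14 AT2G37050 (0.922) and TPI (0.921), and for XERO1 AT2G45700 (0.899) and AT1G23180 (0.887). No gene was the match of more than 1 member.

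Lists of genes around the dehydrins were chosen from textbook knowledge of the pathway. Of 3 further dehydrin loci, only AT4G38410 was tested. It had 0.755, 1.75 and 5.71 CPM in cold mRNA, against 1.76, 1.39 and 1.65 CPM in control mRNA, and its log2 change was 0.35 (SE 0.628, adjusted p = 0.713, edgeR). AT2G21490 had at most 2 reads in a library, and AT4G39130 had 1 read in all 10.

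Of 12 transcription regulators of the pathway, 10 were tested in mRNA, with 3 higher and 2 lower. Of all genes tested, 13.4% were higher and 12.3% were lower. ABF1, which acts in abscisic acid signalling, had 73.9, 72.97 and 100.04 CPM in cold mRNA, against 1.03, 1.71 and 4.32 CPM in control mRNA, and its edgeR log2 change was 4.999 (SE 0.454, adjusted p = 7.58e-04). Without control mRNA replicate 3 it was 5.78. ABI5, a related factor best known from seeds, rose by 2.90 (SE 0.443, adjusted p = 0.00285, edgeR), and DREB2A was also higher, by 1.67. ABF3 had 13.9, 20.4 and 22.1 CPM in cold mRNA, against 83.1, 118 and 84.4 CPM in control mRNA, and fell by 2.43 on the log2 scale (SE 0.223, adjusted p = 3.88e-04, edgeR). ABF2 fell by 0.80 (adjusted p = 0.0248), a call lost on leaving out cold replicate 1 or 2 or control replicate 2 or 3 (adjusted p between 0.0562 and 0.105). Members of the same ABF family thus lay on opposite sides. CBF2 and CBF3 had log2 changes of 2.07 and 1.77 in mRNA and were not called (adjusted p = 0.213 and 0.167, edgeR).

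In polysomes 11 of these regulators were tested, with 1 higher and 1 lower, where 3.87% of all genes tested were higher and 3.95% were lower. CBF2 had 15.5 and 29.2 CPM in cold polysomes, against 3.80 and 2.14 CPM in control polysomes, and its edgeR log2 change was 2.90 (SE 0.439, adjusted p = 0.0255). The call was lost when all 10 libraries entered 1 fit (adjusted p = 0.102), and the CBF genes are close copies, so their counts are uncertain. ABF3 fell by 2.06 (SE 0.307, adjusted p = 0.0251). In translational efficiency edgeR called none of the 11, and the nearest was ABF1, at −3.73 (SE 0.711, adjusted p = 0.0840). DESeq2 called it (adjusted p = 1.48e-05).

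Of 6 other known targets of CBF factors, 5 were higher in mRNA and the same number in polysomes, where 13.4% of all genes were higher in mRNA and 3.87% in polysomes. RD29B was called in neither. COR15B, a chloroplast protein of the cold response, rose by 7.81 (SE 0.210, adjusted p = 9.79e-07, edgeR) in mRNA, and KIN1 by 5.26 (SE 0.275, adjusted p = 2.46e-05). In polysomes KIN1 rose by 5.29 (SE 0.362, adjusted p = 0.0133, edgeR) and KIN2 by 4.10 (SE 0.550, adjusted p = 0.0233), or by 4.91 without control polysome replicate 1. KIN1 and KIN2 are near-identical copies, and COR15A and COR15B are related copies. Whether reads of these genes map apart was not tested, so their counts are uncertain. The median mRNA change of the 6 was 5.08 on the log2 scale.

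Among 11 kinases and kinase subunits, the SnRK2 kinases that activate ABF factors and the casein kinase 2 subunits, 3 were higher and 1 was lower in mRNA, beside 13.4% higher and 12.3% lower among all genes. SnRK2.2 rose by 1.02 (SE 0.137, adjusted p = 0.00173, edgeR) and CKA3, a catalytic subunit of casein kinase 2, by 0.74 (SE 0.150, adjusted p = 0.00902). With raw library totals the CKA3 adjusted p was 0.0783. SnRK2.3 fell by 0.81 (SE 0.203, adjusted p = 0.0210) in mRNA and fell by 2.78 (SE 0.234, adjusted p = 0.0158) in polysomes, the single call of the list there, beside 3.95% lower among all genes. Its mRNA call was lost on leaving out cold replicate 1 or 2 or control replicate 1 or 3 (adjusted p between 0.0505 and 0.0838). The median log2 change of the list was 0.14 in mRNA and 0.38 in polysomes, beside −0.01 and −0.02 over all genes tested.

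The m6A data are lists of peaks, regions of the transcriptome enriched by an antibody against the mark, called by the authors in each library and on each strand. A peak was given to a gene by its summit. The plus and minus labels of the peaks run opposite to the strand of the gene under the summit for 93.7% to 95.1% of peaks on nuclear chromosomes, so the transcript strand was taken as the opposite of the label. This was found from the peaks, not stated in the labels.

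ERD10, ERD14, LTI30, RAB18 and HIRD11 had a transcript-strand peak in all 3 cold and all 3 control lists, as did 52% of the 18815 coding genes expressed in mRNA. XERO1 had none in any list. It is not among these genes, since its few reads passed no filter, and 14% of them had none. COR47 had a peak in 1 of 3 cold lists, replicate 3, and in 3 of 3 control lists. The summit of the cold peak lay at −603 nt from the end of the stop codon. Each control list had a summit between −370 and −267 nt. Control lists 1 and 2 also had summits at −550 and −518 nt, in peaks that overlapped the cold peak. Cold list 3 was the smallest, with 15383 peaks against 23174 to 27310 in the others. A gene had at least 2 more control than cold lists with a peak in 6.58% of cases. With only peaks at a q of at most 0.05, COR47 had 0 cold lists and 2 control lists, and no member had a peak in all 6 lists. At that q, 8.2% of genes had at least 2 more control than cold lists with a peak. Lists of 3 against 3 cannot go below an exact permutation p of 0.1, and no test was made. The COR47 mRNA level that lies behind the peaks also differed between the conditions, and its part in the peak calls was not tested.

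Most of the dehydrin peaks had folds below the median of their list. Fold values are the authors' enrichments over background and are read only within a list. On the transcript strand the folds of HIRD11 were 1.25 to 1.61 in cold and 1.35 to 1.79 in control, and those of LTI30 were 1.29 to 1.66 in cold and 1.43 to 2.33 in control. ERD10 had 1.27 to 1.88 in cold and 1.401 to 1.81 in control, and ERD14 had 1.395 to 2.26 in cold and 1.69 to 1.93 in control. The highest belonged to RAB18, with 1.68 to 2.60 in cold and 1.45 to 3.16 in control. The median transcript-strand peak of a list had a fold of 2.13 to 2.64. COR47, at 1.87 in cold and 1.299 to 2.31 in control, was in the same range. On the transcript strand the peaks above the middle of their list were 1 of COR47 in control list 2, 1 of LTI30 in control list 2, and those of RAB18 in cold list 1 and control list 3, at percentiles of 56.4, 58.0, 64.3 and 84.5.

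Summits lay at repeated positions in several members. In HIRD11 a summit fell 65 to 70 nt past the stop codon, in the 3′ UTR, in all 6 lists, within a span of 6 nt (chr1:20309970-20309975). Counted from the end of the stop codon, with negative positions upstream, the RAB18 summit lay at −200, −199 and −191 nt in the cold lists and at −192 nt in control list 3, and at −421 and −417 nt in control lists 1 and 2. In ERD10 the cold lists had summits at −104, −105 and −102 nt and the control lists at −39, −40 and −46 nt. The control peaks with these summits were broad and spanned the whole of the cold ones. All had folds of 1.35 to 1.55 and none had a q of at most 0.05, and a shift between the conditions was not tested. Each list held further ERD10 peaks, except control list 3. ERD14 had summits at −48 and −45 nt in cold lists 2 and 3 and at −42 nt in control list 3, and at −294 nt in cold list 1 and −294 and −293 nt in control lists 1 and 2.

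For each of the 6 members with transcript-strand peaks, 1 window of 30 nt is printed, around the summit with the most lists within 10 nt. Ties went to the higher fold: in ERD10 the position of the control lists tied with that of the cold lists, and in ERD14 the position near −45 nt tied with that near −294 nt, at 3 lists each. Capitals mark matches to the consensus at which m6A is usually found, which is A or G, A or G, A, C, then A, C or U. They are chr1:7088267-7088296 for ERD10, chr1:28587044-28587073 for ERD14, chr5:26518689-26518718 for RAB18, chr1:20309956-20309985 for HIRD11 and chr1:7085078-7085107 for COR47, all on the minus strand, and chr3:18941008-18941037 on the plus strand for LTI30, read 5′ to 3′ as RNA from the RefSeq TAIR10.1 genome:
ERD10 window: uuccagguuaucacgccaAGACCacuggag
ERD14 window: gaagcuuccaggauaccacccuaAGACCac
RAB18 window: ggaugauGGACAaggagggaggaggaagaa
HIRD11 window: uuaauuaauguugcuguauguucuuaucau
COR47 window: gacuaguggagaagaucaaggagaagcucc
LTI30 window: guucaccacgagaagaaaggaaugacggaa
The ERD10, ERD14 and RAB18 windows held 1 match each, and the HIRD11, COR47 and LTI30 windows held 0. Of 134099 windows around transcript-strand summits in the 6 lists, 34.5% held a match, so a match in 3 of these 6 windows is a description.

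Peaks were also present on the strand opposite to the transcript. COR47, ERD10 and HIRD11 had such a peak in all 3 cold and all 3 control lists, which was so for 1.71% of expressed coding genes. The ERD10 peaks there had folds of 2.54 to 4.41 in cold and 2.06 to 5.01 in control, above those on its transcript strand in each list, and all 3 cold and all 3 control lists held one with a q of at most 0.05. COR47 had folds of 1.59 to 2.63 in cold and 2.44 to 4.66 in control, with a summit at −409 nt in each cold list and at −411, −412 and −393 nt in the control lists. HIRD11 had 1.45 to 1.61 in cold and 1.43 to 1.76 in control. No annotated gene overlaps these 3 loci on either strand. Counting peaks on either strand, COR47 was present in all lists of both conditions, and 6 of the 7 members had a peak in every list.

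**Figure D5:**
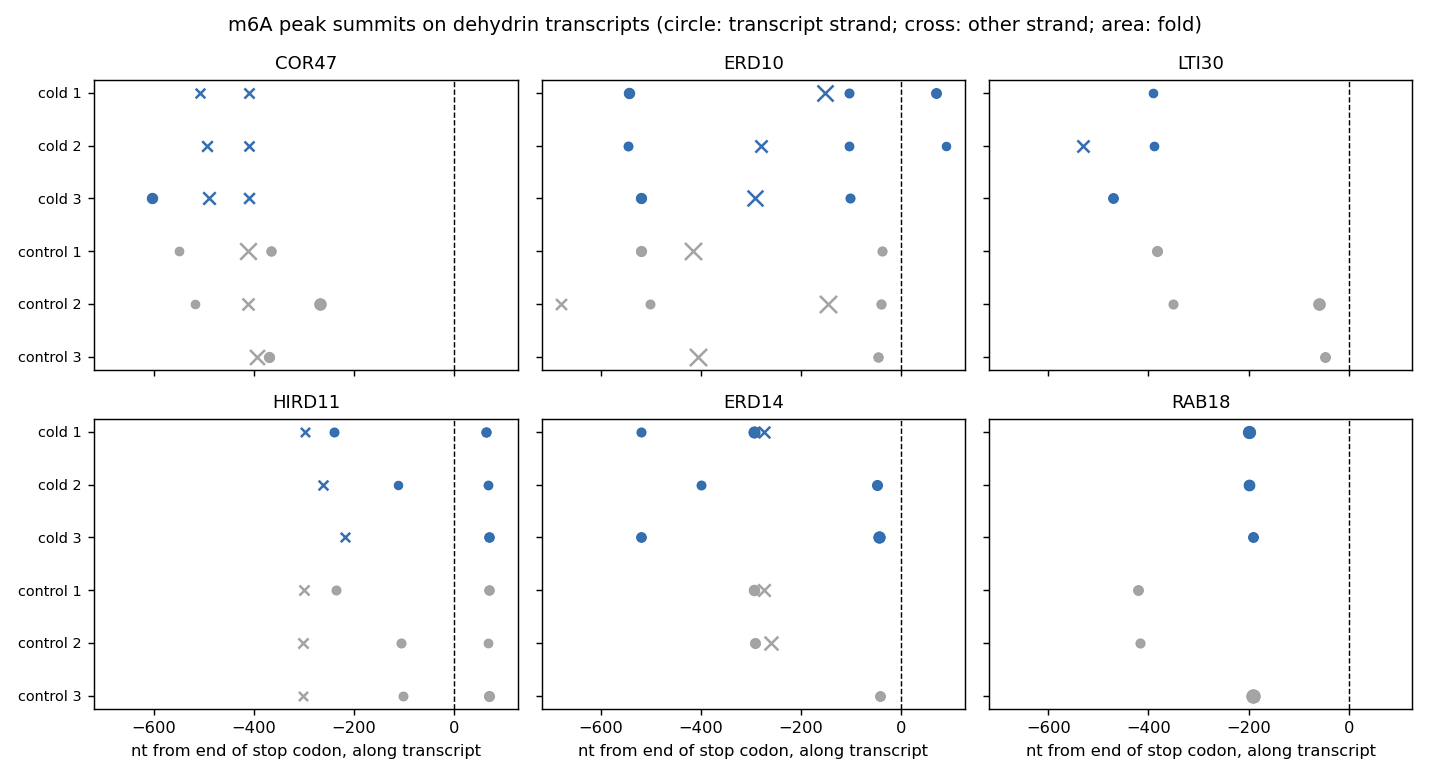
Position of m6A peak summits on 6 dehydrin transcripts, in nt along the transcript from the end of the stop codon (dashed line), 1 row per list with cold above control; circles lie on the transcript strand, crosses on the other strand, and the area follows the authors' fold. HIRD11 has a summit 65 to 70 nt past the stop codon in all 6 lists, and ERD10 carries large crosses in every list.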

How the data were processed

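The mRNA and polysome files hold whole-number read counts per gene as the authors deposited them, made with STAR and HTSeq on TAIR10 per the submitters' processing notes. Versions are not named there. The peak files hold, as deposited, a score per peak (not used further), the enrichment of the peak as a fold (ratio to background), and −log10 p-values and −log10 q-values; the notes also name MACS2. Lists were deposited per library. The sources used here do not give the strand setting of the counting. Per the labels' protocols, the kit for the immunoprecipitated and input libraries was stranded.

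Groups were compared over all genes in R 4.3.3 with edgeR 4.0.16, using TMM, filterByExpr and robust quasi-likelihood F tests. The adjusted p-values are Benjamini-Hochberg values over every tested gene, and calls were made under 0.05. DESeq2 1.42.0 was an alternative. The interaction used the 10 count libraries in 4 groups. The fits were tested on simulated data. Replicates differed by more than sampling noise, with a chi-square per degree of freedom of 11.95 or higher. No replicate block was used, since the labels do not say that replicate numbers pair samples. Peaks were assigned by their summit to coding genes of the RefSeq annotation of TAIR10.1, and no peak ends past a chromosome of that build. Promoter and transcript sequences were read from that genome. Exact permutation tests enumerated every split of the libraries. Members are always named, as are the 2 genes most alike to each, and per list up to 2 higher and 2 lower genes of lowest p; CBF2 and CBF3 in mRNA, DREB2A, RD29B and ABF1 in translational efficiency were named after their values were seen. The members, lists and tests were chosen with earlier results of these data known. No column of per-sample values was left unmapped.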

Additional observations from a re-analysis of the deposited data

Results flagged for a closer look

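No dehydrin met a rule for a closer look. The polysome change differed from the mRNA change for SnRK2.3 and COR15B among the listed genes, by the test of the interaction. SnRK2.3 had 7.76 and 6.25 CPM in cold polysomes, against 49.9 and 46.5 CPM in control polysomes, and 9.25, 8.36 and 9.89 CPM in cold mRNA, against 16.6, 11.8 and 17.0 CPM in control mRNA. Its difference was −2.04 on the log2 scale (SE 0.293, adjusted p = 0.0247, edgeR quasi-likelihood test), and the call was lost without 7 of the 10 libraries, each left out in turn, and with raw library totals (−1.86, adjusted p = 0.0562). With 1 library left out the difference was −2.18 to −1.89. COR15B had 3178 and 3499 CPM in cold polysomes, against 361 and 106 CPM in control polysomes, and 1591, 1537 and 1359 CPM in cold mRNA, against 6.09, 5.79 and 7.07 CPM in control mRNA. Its difference was −4.04 (SE 0.582, adjusted p = 0.0247), and the call was lost without 6 of the 10 libraries, where the difference was −4.12 to −3.95. It was kept without control polysome replicate 1, at −2.90, and without control polysome replicate 2, at −4.68. COR15B has a related copy, COR15A, and whether their reads map apart was not tested, so its counts are uncertain.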

How the results depend on the processing

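In mRNA the 4 calls held under all 7 other settings and without each of the 6 libraries. In polysomes the number of higher members was 3 under the 7 other settings and 1 to 3 with 1 library left out. The number of lower members was 1 with DESeq2 and 1 with the replicate block, each time RAB18, and 0 to 1 with 1 library left out; cold polysome replicate 2 was the library without which RAB18 was called. Members with a peak in every list numbered 0 at a q of at most 0.05, 6 on either strand and 3 on the other strand alone. For COR47 the percent of cold lists minus that of control lists was −66.7, 0 on either strand and 0 on the other strand, and −100.0 to −50.0 with 1 list left out.

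Among the members, signs turned only for values that were not called. ERD14 in polysomes was −0.0377 with library totals, −0.12 with the replicate block and −0.81 to 0.59 with 1 library left out. RAB18 in mRNA was −0.60 to 0.11 and HIRD11 in polysomes −0.0178 to 0.85 with 1 library left out. In translational efficiency LTI30 was −0.33 with the replicate block and −0.87 to 0.56 with 1 library left out, ERD10 −0.0547 to 1.41 and ERD14 −0.62 to 0.81. The cause was not tested. The block changed no other member's call. Same-numbered libraries deviated from their group means with r of −0.0427, −0.0266 and 0.224 in mRNA, where not every library correlated best with its own number, and 0.464 in polysomes, where 2 pairs are too few to show pairing.

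Counts over all genes moved more. Higher and lower genes in polysomes were 744 and 760 in the fit reported, 1714 and 1464 with DESeq2, 1170 and 1126 with no filter, 2199 and 2309 with the replicate block, 2150 and 1766 with all 10 libraries in 1 fit, and 141 to 1597 and 207 to 1044 with 1 library left out. In mRNA they were 2586 and 2363, and 1424 to 2626 and 1148 to 2218 with 1 library left out. In translational efficiency they were 13 and 44, 196 and 320 with DESeq2, 8 and 27 with library totals, 29 and 74 with the replicate block, and 0 to 22 and 1 to 115 with 1 library left out. Library totals moved the median log2 change of all genes to −0.17 in mRNA and 0.135 in translational efficiency. Leaving out a polysome library leaves its group with 1 library, which is assumed to vary like the other groups.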
